A study of Mus musculus with 6 samples.

Results

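The genes described here encode the non-collagen part of the extracellular matrix: adhesive and matricellular glycoproteins, elastic fibre proteins, laminins and their basement membrane partners, and proteoglycans. The 45 members were taken by name from the deposited table of 29955 gene names, and every member was found there. Of these, 27 averaged at least 1 FPKM and entered the test, which ran over 11816 genes, and 18 lay under that level. FPKM corrects for how long a transcript is and how deeply its library was sequenced. Its sum still differed between libraries, from 2383000 to 2784800, so counts with libraries rescaled to the same sum are given too.

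The cells were MS-1, an endothelial line of mouse, and carried 1 of 3 transfected inhibitors of microRNAs: a negative control, an inhibitor of miR-31 or an inhibitor of miR-27. Each transfection was kept for 72 h with 1 ng/ml TGF-β2 or without it. This gave 6 libraries of total RNA depleted of ribosomal RNA, 1 for each condition, with no replicate of any condition. The 3 libraries with TGF-β2 were set against the 3 without it within transfections, and since nothing in the labels names separate cultures, the p-values measure the spread between these libraries, which may be technical. Values below are given in the order negative control, miR-31 inhibitor, miR-27 inhibitor.

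The matrix glycoproteins form the scaffold around a vessel. Laminins, each a trimer of an α, a β and a γ chain, assemble with nidogens and the heparan sulfate proteoglycans perlecan and agrin into the basement membrane under the endothelium. Fibronectin and the matricellular proteins belong to the provisional matrix of wounds and scars, and fibulins, fibrillin, emilins and elastin build elastic fibres. TGF-β is a classical inducer of matrix genes, and endothelial cells that move toward a mesenchymal state under it are known to exchange basement membrane for interstitial matrix proteins. The study asked which part of that transition depends on miR-31.

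Endothelial markers were high in every library: the summed FPKM of the 10 genes listed was 1414, 1511 and 1406 without TGF-β2 and 1515, 1529 and 1540 with it, although the tight junction gene Cldn5 stayed at or under 0.0359 FPKM. Of the 9 of these genes tested, Kdr (-0.80), Robo4 (-0.49), Esam (-0.39) and Tie1 (-0.33) fell on the log2(FPKM + 1) scale and Emcn (0.79) and Eng (0.53) rose. Of 12 fibroblast and mural markers, 3 were tested and all 3 rose (Pdgfra, Pdgfrb and Des). Over all genes tested, 22.7% rose and 27.5% fell. The sum of that list went from 4.21 to 25.7, 4.62 to 20.6 and 4.74 to 24.2 FPKM. Most of it with TGF-β2 was Pdgfra, which went from 1.86 to 19.3, 2.33 to 15.4 and 2.51 to 18.2. Among those not tested, Cnn1, Tagln, Col1a1 and Col1a2 were higher in each library with TGF-β2 but did not exceed 0.608 FPKM. The others overlapped between groups, with Tcf21 listed at 0 throughout and Rgs5 at or under 0.0143 FPKM. The leukocyte list summed to between 171 and 213 FPKM without and between 108 and 138 with TGF-β2, nearly all of it Cd68, while Ptprc did not exceed 0.0257 FPKM. Its 2 tested genes went opposite ways, with Cd68 at -0.65 and Lyz2 at 0.21. Cd14 and Csf1r averaged under 1 FPKM and were higher in every library with TGF-β2, and the remaining genes of the list overlapped between groups. Epithelial markers summed to at most 54.9 FPKM, mainly Krt18, with Epcam at 0 in every library, and pancreatic markers to at most 0.245. These shifts moved with TGF-β2 as the members did, and their part in the results was not tested. In bulk RNA, a change in the number of cells of a type cannot be told apart from a change in RNA per cell. The library that combined TGF-β2 with inhibition of miR-31 stood apart in stress genes, with the stress factor Ddit3 at 298 FPKM against 19.6 and 39.8 in the other libraries with TGF-β2, so the counts of all members are given with and without it. Relative depth, read from the steps of the lowest values, ran from 0.817 to 1 of the deepest library.

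With TGF-β2, 16 of the 27 tested members rose and 5 fell. Over all 11816 genes tested, 50.2% passed the same threshold, a limma adjusted p under 0.05, with 22.7% higher and 27.5% lower. Without the library that stood apart, 17 members rose and 4 fell, where 23.7% and 27.9% of all genes did. Leaving that library out also removes its untreated partner from the fitted TGF-β2 difference. A difference of at least 1 on the log2(FPKM + 1) scale was reached by 9 members upward and 2 downward, where the shares over all genes were 2.36% and 1.97%. These counts were also 9 and 2 without the library that stood apart, but they depend on the scale. With a pseudocount of 5 FPKM they were 6 and 1, against 1.12% and 1.02% of all genes. With each library rescaled to the same sum they were 7 and 1 of 26 members tested, against 2.08% and 1.33% of all genes. That rescaling also divides values by 2.38 to 2.78 before 1 is added, which shrinks differences at low levels. The median difference of the 27 members was 0.30, against -0.02 over all genes tested. In 16 members the 3 libraries with TGF-β2 lay above the 3 without it, and in 6 below, where 26.8% and 31.6% of all genes tested were so separated. Without the library that stood apart these counts were 18 and 6, against 30.9% and 36.8%. With each library rescaled to the same sum, the split over all genes became 2989 higher and 1435 lower of 10292 tested, and that of the members 17 and 4 of 26.

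**Figure D1:**
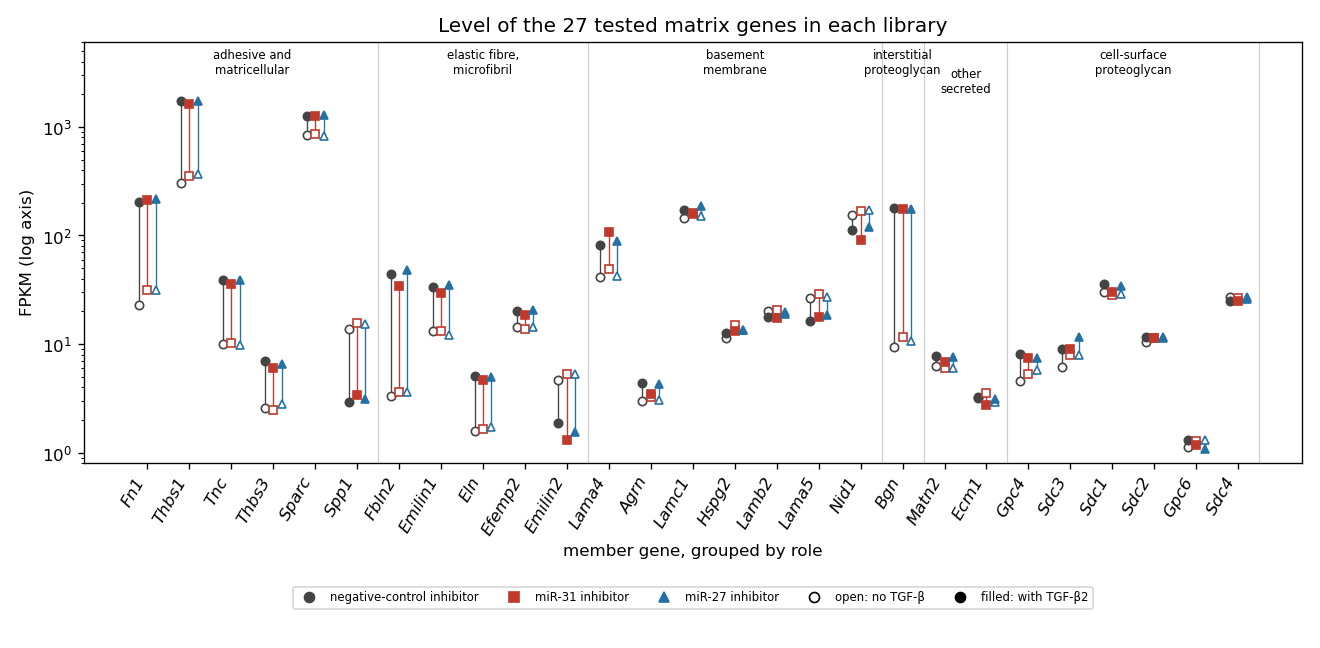
Level of each tested member in FPKM on a log axis, with open symbols for libraries without and filled symbols for libraries with TGF-β2, and 1 line per inhibitor. Bgn, Fbln2 and Fn1 span the longest upward lines, Spp1 and Emilin2 the longest downward ones, and Thbs1 and Sparc are the highest genes of the set.

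The sum of the 45 members was higher with TGF-β2 in each transfection. It was 1726, 1855 and 1825 FPKM without TGF-β2 and 4030, 3908 and 4129 with it, or 2.34-, 2.11- and 2.26-fold. Most of the sum was held by Sparc and Thbs1. Sparc made up 48.5%, 46.2% and 45.3% of the sum without TGF-β2 and 31.1%, 32.2% and 31.2% with it. Thbs1 made up 17.5%, 19.0% and 20.2% without and 42.7%, 41.5% and 41.9% with it. Without these genes the sum of the other members went up 1.81-, 1.59- and 1.76-fold, and this rise was not spread evenly. Fn1 went from 1.32%, 1.68% and 1.71% of the sum of the 45 members to 5.02%, 5.38% and 5.28%. Bgn went from 0.540%, 0.624% and 0.588% to 4.43%, 4.47% and 4.22%. The basement membrane members summed to 400, 445 and 430 FPKM without TGF-β2 and 418, 412 and 452 with it.

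Among the adhesive and matricellular glycoproteins, 5 of the 6 tested members rose and Spp1 fell, against 22.7% and 27.5% of all genes tested. Fn1 encodes fibronectin, the adhesive glycoprotein that integrins assemble into fibrils (mm9 chromosome 1, 71632097 to 71709417). It stood at 22.8, 31.1 and 31.1 FPKM without TGF-β2 and at 202, 210 and 218 with it. The untreated negative-control library was the lowest, and the difference between the groups was far wider than the spread within them (2.86 ± 0.08, SE of the fit, adjusted p = 5.38e-05). At the same place the table lists Gm15456, which reached at most 3.32 FPKM, so few fragments there carry that second name.

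Thbs1 encodes thrombospondin-1, a matricellular protein that restrains vessel growth and can activate latent TGF-β (chromosome 2, 117937658 to 117952869). It stood at 302, 352 and 368 FPKM without TGF-β2 and at 1720, 1622 and 1730 with it. It passed from rank 289, 261 and 249 among the genes tested to rank 73, 83 and 78, overtaking Sparc in all 3 transfections (difference 2.31 ± 0.07, adjusted p = 6.33e-05). Thbs3, a pentameric relative, went from 2.58, 2.49 and 2.78 to 7.02, 6.05 and 6.52 FPKM, a difference of 1.06 ± 0.05 with no overlap of the groups. Thbs2, whose protein shares the trimeric form of thrombospondin-1, lay under the filter at 0.0649, 0.0699 and 0.0943 FPKM and reached 1.48, 1.18 and 1.18. All 3 thrombospondin genes among the members were thus higher in each library with TGF-β2, and Thbs1 stood far above Thbs2 and Thbs3 in FPKM.

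Tnc encodes tenascin-C, a hexameric glycoprotein of wounds and tumour stroma. It went from 9.97, 10.3 and 9.87 FPKM to 38.6, 35.3 and 39.2, with close agreement within each group (difference 1.81 ± 0.05, adjusted p = 5.62e-05). The listed place of Tnc also holds AK033210, at 1.97 to 2.52 FPKM. Sparc encodes osteonectin, a collagen-binding matricellular protein (chromosome 11, 55208003 to 55233582). It was the highest member without TGF-β2, at 838, 858 and 827 FPKM, and reached 1252, 1259 and 1290 with it. The fold was modest, 1.49, 1.47 and 1.56, but the groups lay far apart relative to their spread (0.59 ± 0.04, adjusted p = 5.44e-04).

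Spp1 encodes osteopontin, a secreted integrin-binding phosphoprotein (chromosome 5, 104864130 to 104870072). It ran against the rest of its group, from 13.8, 15.6 and 15.3 FPKM down to 2.92, 3.37 and 3.09. It fell by 1.95 ± 0.04 on the log2(FPKM + 1) scale (adjusted p = 2.87e-05), and the levels without TGF-β2 were 4.72, 4.63 and 4.96 times those with it. The last members of the group were hardly detected: Tgfbi, which encodes a TGF-β-induced adhesion protein in many cells, was at or under 0.0957 FPKM, and Postn, which encodes periostin, was listed at 0 in all 6 libraries.

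**Figure D2:**
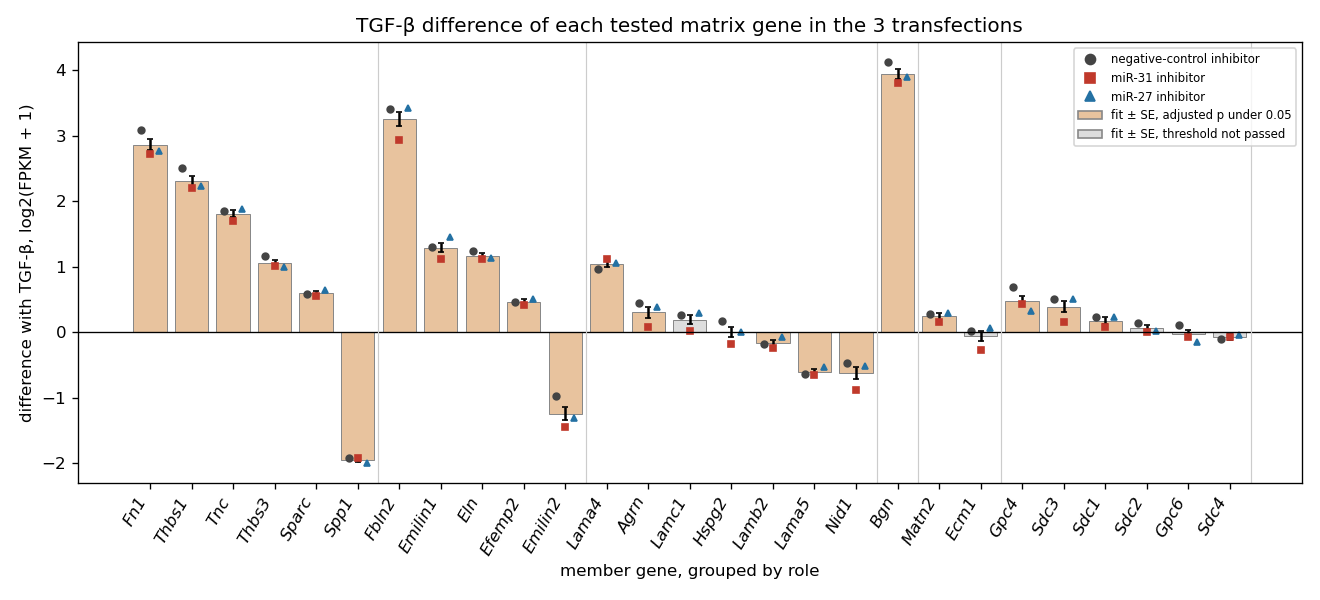
Difference with TGF-β2 on the log2(FPKM + 1) scale for each tested member, as the fit over the 3 transfections (bars, with the SE of the fit) and in each transfection (symbols). The 3 symbols lie close together for most members, and they are farthest apart for Fbln2, Emilin2, Nid1 and Gpc4.

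The largest difference of the set belonged to Bgn, which encodes biglycan, a small leucine-rich proteoglycan of the interstitial matrix that binds collagen and TGF-β (chromosome X, 70728974 to 70741275). It went from 9.32, 11.6 and 10.7 FPKM to 178, 175 and 174, or 19.1-, 15.1- and 16.2-fold. The 3 libraries with TGF-β2 differed from each other by a few FPKM (difference 3.94 ± 0.07, adjusted p = 2.08e-05). The other interstitial proteoglycans were nearly silent in all libraries. Dcn, which encodes the related decorin, did not exceed 0.0436 FPKM, Lum, which encodes lumican, was above 0 in a single library at 0.0111, and Vcan, the gene of the large hyaluronan-binding proteoglycan versican, lay between 0.0578 and 0.147. Vcan shares its listed place with Xrcc4, a DNA repair gene at 7.79 to 9.23 FPKM.

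The elastic fibre and microfibril group had 4 tested members that rose and 1 that fell, against 22.7% and 27.5% of all genes tested. Fbln2 encodes fibulin-2, which links elastic fibres and basement membranes (chromosome 6, 91162758 to 91222534). It stood at 3.31, 3.59 and 3.58 FPKM without TGF-β2 and at 44.6, 34.0 and 47.9 with it, a rise of 3.25 ± 0.11 (adjusted p = 7.53e-05). The lowest of its 3 libraries with TGF-β2 was the one with the miR-31 inhibitor. Emilin1, whose glycoprotein restrains the processing of TGF-β precursors, went from 13.1, 13.1 and 12.2 to 33.8, 29.6 and 35.1 FPKM (1.29 ± 0.07). Eln, which encodes tropoelastin, went from 1.58, 1.63 and 1.70 to 5.11, 4.69 and 4.96 FPKM (1.17 ± 0.05), and Efemp2, which encodes a fibulin needed for elastin crosslinking, from 14.3, 13.7 and 14.2 to 19.9, 18.6 and 20.6 (0.46 ± 0.04). In each of these genes the groups did not overlap.

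Emilin2, which encodes the close relative of emilin-1, moved the opposite way. It went from 4.66, 5.26 and 5.31 FPKM to 1.87, 1.30 and 1.54, a fall of 1.24 ± 0.10 (adjusted p = 7.30e-04). The ordering of the pair thus widened from 13.1 against 4.66 FPKM to 33.8 against 1.87 with the negative control. Of the 6 members of this group under the filter, 3 had levels that moved with TGF-β2 in every transfection and exceeded 0.3 FPKM. Fbln5, whose fibulin organises elastin on microfibrils, was at 0.0501, 0.0858 and 0.155 FPKM without and at 1.25, 1.39 and 1.23 with TGF-β2. Fbn1, which encodes the microfibril protein fibrillin-1, was at 0.241, 0.241 and 0.232 without and at 0.770, 0.5004 and 0.589 with it. Fbln1, the gene of fibulin-1, was at 0.747, 0.885 and 0.733 without and at 0.363, 0.396 and 0.357 with it. Efemp1 was listed at 0 in every library, Mfap2 did not exceed 0.0496 and Mfap5 did not exceed 0.0286 FPKM.

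**Figure D3:**
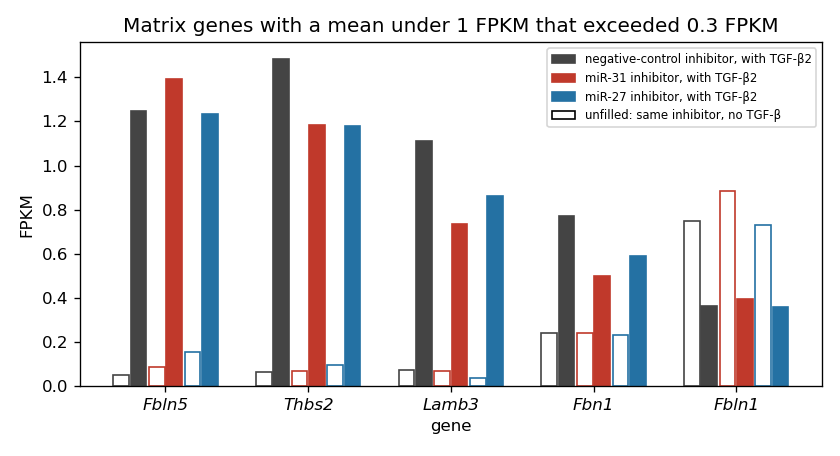
Level in FPKM, in each library, of the members with a mean under 1 FPKM that exceeded 0.3 FPKM in any library (bars from 0). Fbln5, Thbs2, Lamb3 and Fbn1 were higher and Fbln1 lower in every library with TGF-β2.

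With no filter on low values, 5876 of the 22614 names tested passed. This count pools names under and over 1 FPKM, and the share among names under 1 FPKM alone was not computed. Of the 18 members under 1 FPKM, 2 were listed at 0 in every library and did not enter this fit. There 5 members passed: Thbs2 (1.08 ± 0.06, adjusted p = 0.00659), Fbln5 (1.06 ± 0.05, 0.00538), Lamb3 (0.84 ± 0.07, 0.0110), Fbn1 (0.38 ± 0.06, 0.0323) and, downward, Fbln1 (-0.38 ± 0.02, 0.00778). In the same fit 5 of the members with small differences no longer passed (Agrn, Gpc4, Lamb2, Sdc1 and Sdc3). The pseudocount of 1 shrinks differences at such low levels. In all, 13 of the 18 members never exceeded 0.2 FPKM. For these the levels do not allow a statement on TGF-β2.

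The promoter windows of members that moved most can be read beside these values. RefSeq (build GRCm38.p6) gave a window of 300 bases, 250 before and 50 after the start of transcription, for 30 of the 45 members. Those of Bgn, Fbln2 and Tnc, among the largest rises, and of Spp1, the largest fall, are printed 5′ to 3′ on the gene's strand. Where RefSeq lists more than 1 start for a gene the first is shown. Capitals mark TATAAA, the element that TBP binds near many starts, CCGCCC, the box that Sp1 binds, CAGAC, the short element that Smad proteins recognise, and TGANTCA, the site of AP-1 factors, all searched on both strands.
Bgn, chrX:73483351-73483650, plus strand: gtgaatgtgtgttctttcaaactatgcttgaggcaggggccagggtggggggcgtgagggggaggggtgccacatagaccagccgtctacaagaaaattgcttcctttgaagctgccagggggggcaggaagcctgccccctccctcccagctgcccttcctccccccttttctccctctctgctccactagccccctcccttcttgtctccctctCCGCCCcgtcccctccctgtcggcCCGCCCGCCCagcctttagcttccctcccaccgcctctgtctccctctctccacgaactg
Fbln2, chr6:91212514-91212813, plus strand: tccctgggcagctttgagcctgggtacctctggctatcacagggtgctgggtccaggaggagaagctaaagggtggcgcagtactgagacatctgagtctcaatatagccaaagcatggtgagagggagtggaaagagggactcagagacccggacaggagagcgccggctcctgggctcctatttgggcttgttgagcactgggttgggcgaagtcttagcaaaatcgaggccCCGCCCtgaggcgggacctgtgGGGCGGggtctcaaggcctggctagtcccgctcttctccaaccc
Tnc, chr4:64046966-64047265, minus strand: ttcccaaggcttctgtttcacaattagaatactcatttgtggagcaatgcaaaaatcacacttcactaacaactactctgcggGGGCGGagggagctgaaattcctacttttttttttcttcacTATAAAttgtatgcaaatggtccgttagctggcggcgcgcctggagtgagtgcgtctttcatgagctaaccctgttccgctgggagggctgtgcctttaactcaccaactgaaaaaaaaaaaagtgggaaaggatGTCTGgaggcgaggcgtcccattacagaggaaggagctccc
Spp1, chr5:104434861-104435160, plus strand: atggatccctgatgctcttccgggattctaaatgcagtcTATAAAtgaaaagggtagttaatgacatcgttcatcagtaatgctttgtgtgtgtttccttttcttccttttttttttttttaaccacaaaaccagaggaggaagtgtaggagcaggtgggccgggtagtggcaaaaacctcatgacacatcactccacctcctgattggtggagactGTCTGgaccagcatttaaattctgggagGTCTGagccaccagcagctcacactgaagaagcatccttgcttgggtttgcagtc

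The windows of Bgn and Fbln2 held 3 and 2 GC boxes and none of the other letters. Those printed for Tnc and Spp1 each held TATAAA, in both well before the start of transcription and not next to it. They held 1 CAGAC in Tnc and 2 in Spp1, so these motifs occurred in a gene that rose and in one that fell. Among all windows of the same length, 35.7% held CCGCCC, 49.6% CAGAC, 13.6% TATAAA and 7.81% TGANTCA. Over windows of genes tested the shares were 64.5%, 46.4%, 6.80% and 4.98%. The 25 windows of 19 tested members held CCGCCC in 19, CAGAC in 14, TATAAA in 4 and TGANTCA in 1, that of Ecm1. A match is a description of the letters and not of binding.

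The basement membrane group divided, with 2 of 7 tested members higher, 3 lower and 2 that did not pass. The shares higher and lower were 28.6% and 42.9%, against 22.7% and 27.5% of all genes tested. Lama4 encodes the laminin α4 chain of vascular basement membranes (chromosome 10, 38685321 to 38829994). It stood at 41.5, 49.6 and 42.4 FPKM without TGF-β2 and at 82.1, 108 and 89.3 with it, a rise of 1.05 ± 0.05 (adjusted p = 1.58e-04). Lama5 encodes α5, the other main endothelial α chain (chromosome 2, 179911078 to 179960564). It moved the opposite way, from 26.3, 28.8 and 27.05 down to 16.5, 17.9 and 18.4 FPKM (-0.61 ± 0.05, adjusted p = 6.91e-04). The ratio of Lama4 to Lama5 in FPKM therefore went from 1.58, 1.72 and 1.57 to 4.99, 6.06 and 4.84. The separation of the ratio follows from the opposite directions of its terms. An exact permutation test of the log2 ratio gave p = 0.1, the smallest it can give with 3 libraries per group, so it decides nothing.

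The β chains differed as well. Lamb2 fell slightly, from 20.2, 20.6 and 19.9 to 17.6, 17.3 and 18.8 FPKM (-0.17 ± 0.05, adjusted p = 0.0402). With libraries rescaled to a common sum its difference was -0.06 (adjusted p = 0.533). Lamb1, the β1 chain gene, which is not a member but completes the common endothelial laminins, went from 28.3, 30.7 and 29.5 to 77.4, 71.6 and 79.8 FPKM (1.34 ± 0.06). The table lists part of that gene under Lamb1-1 at the same place, at 2.796 to 8.94 FPKM. Lamc1, the γ1 chain gene that nearly all laminins use, was the highest laminin at 143, 159 and 151 FPKM without and 172, 161 and 186 with TGF-β2. It missed the threshold (0.19 ± 0.07, adjusted p = 0.0726), and passed without the library that stood apart. Lamb3, which encodes a β chain typical of epithelial laminins, went from at most 0.0726 to between 0.734 and 1.11 FPKM, while Lama3, the gene of its usual α partner, stayed at or under 0.0456. The place listed for Lamb3 spans Hsd11b1, a steroid dehydrogenase gene, at 0.739 to 1.13 FPKM.

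**Figure D4:**
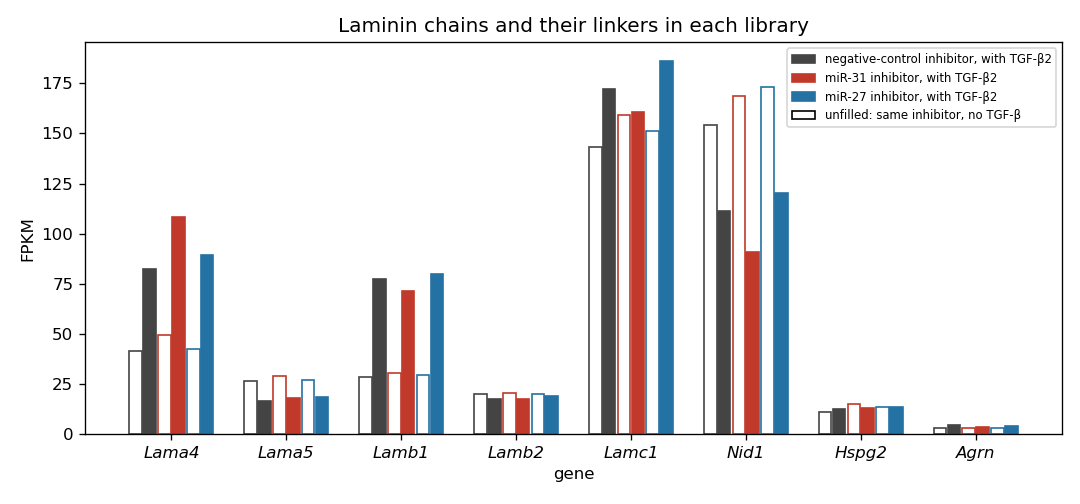
Level in FPKM of laminin chain genes and of the basement membrane genes Nid1, Hspg2 and Agrn in each library (bars from 0, unfilled without and filled with TGF-β2). Lama4 and Lamb1 were higher and Lama5 and Nid1 lower in each library with TGF-β2, while the difference in Lamc1 missed the threshold.

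Nid1 encodes nidogen-1, which bridges the laminin γ1 chain and type IV collagen (chromosome 13, 13529869 to 13604542). It stood at 154, 169 and 173 FPKM without TGF-β2 and at 111, 90.6 and 120 with it (-0.63 ± 0.09, adjusted p = 0.00537). Its ratio to Lamc1 went from 1.08, 1.06 and 1.14 to 0.646, 0.564 and 0.647. Nid2, the second nidogen gene, did not exceed 0.105 FPKM, and its listed place holds 2700060E02Rik at 92.8 to 102 FPKM. Hspg2, the gene of perlecan, was at 11.2, 15.0 and 13.5 FPKM without and 12.7, 13.1 and 13.5 with TGF-β2. Its groups overlapped (adjusted p = 0.976). Agrn, the gene of agrin, went from 2.9996, 3.24 and 3.02 to 4.42, 3.49 and 4.26 FPKM (0.30 ± 0.08, adjusted p = 0.0317), with the smallest change under the miR-31 inhibitor.

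Among the cell-surface heparan sulfate proteoglycans, 3 of 6 tested members rose by less than 0.5 and none fell, a share of calls like that over all genes (50.2% in either direction). Gpc4, a lipid-anchored glypican, went from 4.60, 5.32 and 5.75 to 8.05, 7.48 and 7.41 FPKM (0.48 ± 0.08, adjusted p = 0.00805). Of the transmembrane syndecans, Sdc3 went from 6.14, 8.003 and 7.85 to 9.09, 9.05 and 11.6 FPKM (0.39 ± 0.08, adjusted p = 0.0164). Sdc1 went from 30.1, 28.4 and 29.0 to 35.5, 29.9 and 34.1 (0.18 ± 0.05, adjusted p = 0.0392), and it was the 1 member past the threshold whose groups overlapped. Sdc4, an adhesion receptor that works with integrins, was at 26.96, 26.4 and 26.9 without and at 25.1, 24.9 and 26.0 with TGF-β2 (adjusted p = 0.174). Sdc2 lay between 10.5 and 11.7 and Gpc6 between 1.07 and 1.31 FPKM, with overlapping groups. Gpc1 was listed at or under 0.0034 FPKM.

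Of the remaining secreted glycoproteins, Matn2, which encodes the filament-forming matrilin-2, rose from 6.23, 6.08 and 6.01 to 7.78, 6.86 and 7.56 FPKM (0.24 ± 0.05, adjusted p = 0.0130). Ecm1, whose product binds several matrix proteins, was at 3.19, 3.50 and 2.91 without and at 3.26, 2.72 and 3.09 with TGF-β2 (adjusted p = 0.541). Mmrn1 and Mmrn2, the multimerin genes, did not exceed 0.0184 and 0.181 FPKM, although multimerin-2 is known as an endothelial matrix protein.

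Leaving out any library of the negative control or the miR-27 inhibitor ended the calls of Agrn, Lamb2, Matn2, Sdc1 and Sdc3. Calls over all genes fell in these fits as well, from 5926 to between 3552 and 3923. The calls of 15 members, 11 higher and 4 lower, held in every alternative that tested them.

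Genes that build or read these proteins were taken from fixed lists. Their counts stand beside 22.7% higher and 27.5% lower over all genes tested. Of 15 tested genes among 60 further matrix glycoproteins and proteoglycans, 8 rose and 5 fell, with the clotting factor gene Vwf at 3.93, Srpx2 at 2.32, the proteoglycan gene Esm1 at 1.98 and Lamb1 at 1.34. Of 8 genes of elastic fibre assembly and crosslinking, 6 rose and 2 fell. The latent TGF-β binding protein genes Ltbp3 (1.83) and Ltbp2 (1.61) led, followed by the transglutaminase gene Tgm2 (1.503) and the lysyl oxidase relative Loxl3 (0.80). Of 27 tested genes that make or edit glycosaminoglycan chains, 13 rose and 6 fell. The heparan sulfate 6-O-endosulfatase gene Sulf1 rose by 1.81, from 17.2, 15.3 and 17.2 to 62.7, 58.4 and 61.5 FPKM, the 6-O-sulfotransferase gene Hs6st2 by 1.63 and the chain polymerase gene Ext1 by 1.41, and the chondroitin sulfotransferase gene Chst7 was at -1.32. The medians of these 3 lists were 0.44, 0.79 and 0.15.

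Receptor genes of these matrix proteins also divided, with 7 of 18 tested higher and 8 lower (median -0.01). Their shares were 38.9% and 44.4%, against 22.7% and 27.5% of all genes tested. Itgb5, Itgb3 and Itgav, which form the αv integrins that bind fibronectin, osteopontin and other proteins with the RGD motif, rose by 4.12, 1.53 and 1.05. Itga6, a subunit of laminin receptors, went from 112, 118 and 96.2 to 9.64, 11.9 and 10.5 FPKM (-3.23).

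With the inhibitors of microRNAs, no member passed in either comparison. The smallest limma adjusted p among members was 0.227 for miR-31 and 0.362 for miR-27. Over all genes tested, 0.0339% passed for miR-31 and 0.00846% for miR-27. At an unadjusted p under 0.05 there were 2 members in each comparison, where 18.1% and 12.4% of all genes lay under it. Both comparisons use the negative-control libraries, so they are not independent of each other.

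**Figure D5:**
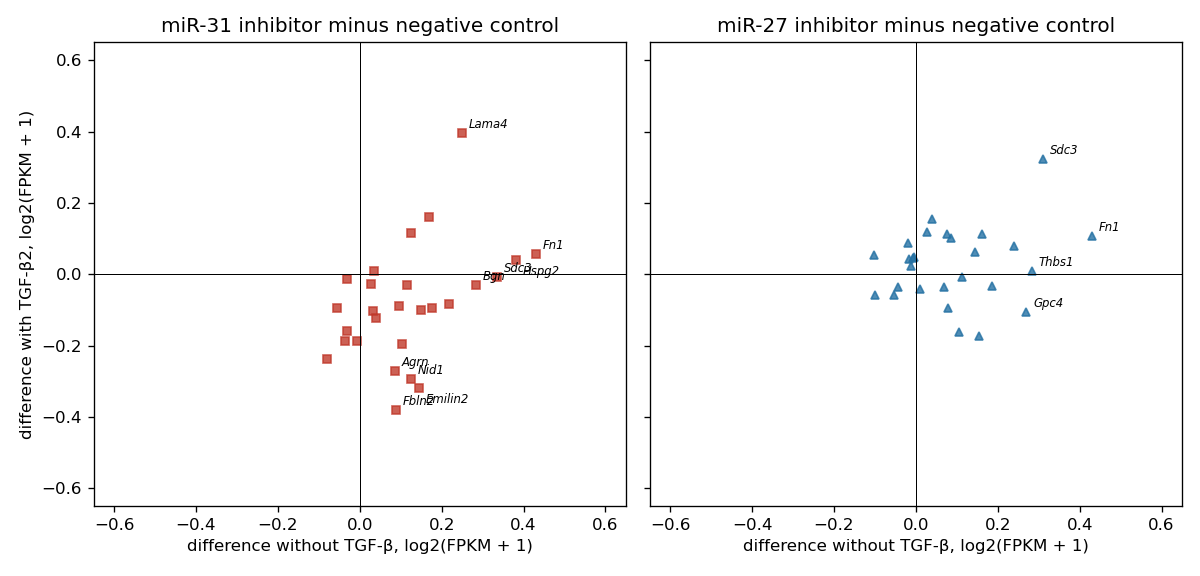
Difference of each tested member from the negative control on the log2(FPKM + 1) scale, without TGF-β2 (horizontal axis) and with it (vertical axis), for the miR-31 inhibitor (left) and the miR-27 inhibitor (right). Lama4 lies up and to the right on the left panel, at 0.25 and 0.40, and Sdc3 on the right panel, at 0.31 and 0.32.

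Members were ordered for each inhibitor by the smaller of the differences without and with TGF-β2, where both had the same sign. Lama4, Spp1 and Lama5 led for the miR-31 inhibitor by this rule. For Lama4 they were 0.25 without and 0.40 with TGF-β2 (0.32 over both, adjusted p = 0.227), for Spp1 0.17 and 0.16, and for Lama5 0.13 and 0.11. By the fitted difference over both states, Fn1 (0.24) and Hspg2 (0.21) lay above Spp1, and Sdc1 was lower with the inhibitor in both states (-0.08 and -0.24). Without the untreated miR-31 library, the miR-31 arm is 1 library, the one that stood apart, and it is assumed to vary like the others. Lama4 (0.37 ± 0.06, adjusted p = 0.0361) and Fbln2 (-0.38 ± 0.06, adjusted p = 0.0295) then passed, 2 of 27 members, where 10.1% of the 11823 genes tested passed, so these calls describe that library and are not particular to the members. For the miR-27 inhibitor, Sdc3 (0.31 and 0.32), Nid1 (0.16 and 0.11) and Fn1 (0.43 and 0.11) led by the same rule, while Hspg2 (0.16) and Thbs1 (0.15) had fitted differences above that of Nid1 (0.14).

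The order of the libraries also differed between the states. Without TGF-β2, the negative control was the lowest of the 3 libraries in 17 of the 27 tested members, against 44.1% of all genes tested. With TGF-β2, the miR-31 inhibitor was the lowest in 18 of the 27, against 40.5% of all genes tested. The members with the widest spread of the 3 TGF-β2 differences were Fbln2 (3.40, 2.93 and 3.42), Emilin2 (-0.98, -1.44 and -1.31), Nid1 (-0.47, -0.89 and -0.52) and Gpc4 (0.69, 0.42 and 0.32). In Fbln2 and Nid1 the miR-31 transfection differed from the other two, and in Gpc4 the negative control did. With 1 library per condition these differences between transfections have no test, and the stress genes above moved in the same library.

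Mature sequences show what each inhibitor was aimed at, with the seed (bases 2 to 8) in capitals, from RefSeq with build GRCm38.p6. miR-27a and miR-27b share their seed, and the labels do not say which of them was inhibited.
mmu-miR-31-5p: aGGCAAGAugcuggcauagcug
mmu-miR-27a-3p: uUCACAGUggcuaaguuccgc
mmu-miR-27b-3p: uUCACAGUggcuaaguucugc

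The 7 letters that pair with each seed, TCTTGCC for miR-31 and ACTGTGA for miR-27, were searched in the longest annotated 3′ UTR of each gene (GENCODE vM21, build GRCm38). All 45 members had one. The miR-31 site occurred in 1 of the 27 tested members, Sparc, or 3.70%, against 13.2% of the 9540 tested genes with such a UTR, whose median length was 1192 bases against 966 for the members. The miR-27 site occurred in 4 tested members, or 14.8%, against 17.8%. The sites are shown in capitals with their flanks because there the microRNA that an inhibitor is aimed at could pair with the RNA of a member.
Sparc, miR-31, chr11:55394862-55394868, minus strand: ggctttcaggtTCTTGCCgggagc
Lamc1, miR-27, chr1:153220198-153220204, minus strand: cttaagaccacACTGTGAcagttc
Agrn, miR-27, chr4:156165966-156165972, minus strand: cctgtgacaatACTGTGAtatcaa
Matn2, miR-27, chr15:34346429-34346435, plus strand: acaaagcaaggACTGTGAgggctt
Sdc2, miR-27, chr15:33034277-33034283, plus strand: tttagttttaaACTGTGAgccatg

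The genes with these sites differed little from the negative control. Sparc differed from it by 0.03 without and 0.01 with TGF-β2 under the miR-31 inhibitor. Under the miR-27 inhibitor the differences were 0.08 and 0.11 for Lamc1, 0.01 and -0.04 for Agrn, -0.04 and -0.04 for Matn2 and 0.11 and -0.01 for Sdc2. Lama4, the leading member under the miR-31 inhibitor, held no miR-31 site in this UTR.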

How the data were processed

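RNA of 6 libraries, 1 per condition, was analysed. Per the submitters' processing notes, reads were handled with TopHat2 2.0.9 and Cufflinks 2.1.1 on build mm9, and the authors deposited FPKM per gene name. Annotation, strand setting and filters are not given in the sources used here. Depth in fragments is unknown. Genes averaging at least 1 FPKM were tested on log2(FPKM + 1) with limma 3.58.1 in R 4.3.3 (additive model of inhibitor and TGF-β2, 2-sided, Benjamini-Hochberg adjustment over all genes tested, threshold 0.05), with 2 residual degrees of freedom. Any true interaction enters the residual. The fit was tested on simulated data. Listed starts were read as counting from 0, because end minus start equalled the RefSeq length for 5685 names and was 1 short for 384, and 1 was added. Members, lists and tests were chosen with earlier results of these data known. Named genes were members with a difference of at least 1 past the threshold or, if under 12, the 12 largest, the 3 leading members per inhibitor, the 4 with the widest range of responses and 4 per related list, and every other member is given by its values. Alternatives covered pseudocount, filter, scaling, moderation, the inhibitor term and left-out libraries.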

Additional observations from a re-analysis of the deposited data

Results flagged for a closer look

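In 4 tested members the TGF-β2 difference had opposite signs between transfections, and this was not tested. On the log2(FPKM + 1) scale, in the order negative control, miR-31 inhibitor and miR-27 inhibitor, Hspg2 was at 0.165, -0.179 and 0.00413. Ecm1 was at 0.0238, -0.275 and 0.0650. Sdc2 was at 0.144, -0.000325 and 0.0242. Gpc6 was at 0.116, -0.0691 and -0.150.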

How the results depend on the processing

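Across 17 alternatives, 59 of 60 counts of members equalled the value reported or stayed within 1.5 times it. The 60 include the counts for both inhibitors, reported as 0, which were taken as unchanged where they were again 0. Those say little about stability. These alternatives are not independent. Leaving out either library of a transfection, or both, gives the same fitted TGF-β2 difference, because the pair then drops out of it. With 1 library left out, between 3552 and 6107 genes passed for TGF-β2 over all genes. With 1 library left out, between 12 and 17 members rose with TGF-β2 and 4 fell, and between 0 and 2 passed for the miR-31 inhibitor. The count of 2 came without the untreated library of the miR-31 inhibitor, which leaves 1 library in that arm, and 1193 of 11823 genes passed there. For the miR-27 inhibitor the count was 0 throughout. Of 296 values of the members with the largest or most variable differences, 294 kept their direction and side of the threshold and none reversed. Over all 21 members that passed, 6 lost their call in at least 1 alternative. Gpc4 did not pass with no filter (adjusted p = 0.0514), and Lama4 passed for the miR-31 inhibitor as described. The model pairs the libraries with and without TGF-β2 by transfection. Without the transfection term Sdc1 did not pass (adjusted p = 0.0767). With rescaling to a common sum Lamb2 did not pass and Lamc1 did. The same rescaling turned the sign of Hspg2 (0.09), Ecm1 (0.01) and Sdc4 (0.03), none of which passed. No fragment counts were given, so precision at low FPKM could not be stated.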
